A study of Mus musculus with 8 samples.

Results

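D1 medium spiny neurons of the mouse caudate putamen were compared between 3 and 21 months of age. A nucleus was counted as D1 when it had at least 500 detected genes, at least 5 unique molecular identifiers (UMIs, counts of single captured RNA molecules) of Rgs9 and Pde10a, and at least 3 UMIs summed over Drd1, Tac1, Isl1 and Pdyn. That sum also had to be at least 3 times the sum of Drd2, Adora2a and Gpr6, and the sum of Otof, Casz1 and Col11a1 had to stay under 6. Members were thus chosen by measured levels of these genes. The rule found 9683 nuclei among 61767 caudate putamen barcodes with 500 or more genes. The whole series held 108519 such barcodes in 8 libraries from 2 brain regions, hippocampus and caudate putamen.

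The striatum sends its output through medium spiny neurons, GABA-releasing cells that make up most of its neurons. Those of the direct pathway carry the dopamine D1 receptor (Drd1), which raises cyclic AMP through the G protein subunit Gnal and adenylyl cyclase 5, and release substance P (from Tac1) and dynorphin (from Pdyn) onto the substantia nigra and the inner pallidum. Those of the indirect pathway carry the D2 receptor (Drd2) and the adenosine receptor encoded by Adora2a, release enkephalin (from Penk) and project to the outer pallidum.

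All mice were C57BL/6JN, with no allele or treatment named in the labels, and the labels set the groups apart by age: 3 months (young) and 21 months (old). Punches came from the left hemisphere, and nuclei were freed in a detergent buffer, stained with Hoechst, sorted and captured on the 10x v3.1 platform. Each library mixed equal numbers of nuclei of 1 male and 1 female of the same age, and each age had 2 caudate putamen libraries, so 4 mice stand behind each age. The library was the replicate in the main tests. The RNA was nuclear, and the values are levels of RNA in nuclei.

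Young libraries 1 and 2 held 2064 and 3179 D1 nuclei, and old libraries 1 and 2 held 2012 and 2428. Libraries are named in this order, young 1, young 2, old 1 and old 2, wherever 4 values stand together. The D1 nuclei carried 35681555, 60057216, 32144025 and 30989948 UMIs in all, with a median of 16368.5, 17967, 15107.5 and 11938 per nucleus. Old library 2 was thus the shallowest in D1 nuclei, with a median of 3566.5 genes against 4024.5 to 4377 in the other libraries. Pairs of libraries shared 53 to 93 cell barcodes, at most 0.63% of the smaller library, and at most 4 D1 barcodes. In the hippocampus, which has no striatal neurons, 0.0453% to 0.0778% of the barcodes of a library met the rule.

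D1 nuclei made up 16.7% of the barcodes with 500 or more genes in young library 1 (exact binomial 95% interval 16.1% to 17.4%), 19.7% in young library 2 (19.1% to 20.3%), 13.8% in old library 1 (13.3% to 14.4%) and 13.0% in old library 2 (12.5% to 13.5%). The intervals cover counting error only. Both old shares lay below both young shares, with means of 18.2% ± 2.10 (SD, n = 2) and 13.4% ± 0.580 (SD, n = 2). An exact two-sided permutation test gave p = 0.33, the smallest that 2 libraries against 2 allow. The rule asks for UMIs, and depth moved with age: the median over all nuclei was 10151.5, 11999, 8119 and 7314 UMIs. After each nucleus was thinned to 4000 UMIs, with shallower nuclei left out (20.4%, 16.3%, 27.4% and 27.1% of the libraries), the shares were 2.85%, 3.05%, 2.68% and 3.41%, and the difference changed sign (0.0971 percentage points higher at 21 months). Among the same deeper nuclei the unthinned shares were 21%, 23.4%, 19% and 17.7%. A change in the number of D1 neurons is therefore not readable from these shares.

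The rule sat on a slope rather than in a gap. The 4 marker genes summed to exactly 3 UMIs in 3406 members, just inside the limit. Just outside it, 3546 other nuclei with Rgs9 and Pde10a had a sum of 2 and no UMI of Drd2, Adora2a or Gpr6. The 3 times ratio kept out a further 946 with a sum of 3 or more, in which neither marker sum was at least 3 times the other. Of the nuclei with enough Rgs9 and Pde10a, 35.4% to 46.7% per library met neither this rule nor its mirror for D2 nuclei. The mirrored rule, which exchanges both marker sums, found 15576 D2 nuclei, the neurons most like the D1 nuclei, and they serve as the comparison below.

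The genes that chose the members are given as a description. Levels are CPM, UMI counts scaled to a common total, in the summed D1 nuclei of a library. Drd1 stood at 110, 101, 121 and 146 CPM and Tac1 at 110, 126, 109 and 136 CPM. Isl1, a transcription factor of direct-pathway neurons, stood at 27.9, 26.5, 30.7 and 28.8 CPM. Pdyn was at 25.0, 18.9, 30.4 and 20.1 CPM. Between 66.7% and 72.9% of the members had UMIs of both Drd1 and Tac1, and 2.64% to 6.21% had UMIs of all 4 genes.

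Markers outside the rule separated the D1 from the D2 nuclei too, although genes of the same nuclei cannot test the rule. Ebf1, a transcription factor needed for direct-pathway neurons, stood at 394, 321, 375 and 295 CPM in D1 and at 28.9, 27.1, 22.6 and 30.4 CPM in D2 nuclei. Sfxn1, a mitochondrial serine transporter, stood at 52.8, 59.5, 49.3 and 52.8 CPM in D1 and at 17.0 to 20.3 CPM in D2 nuclei. Eya1, a transcriptional coactivator, reached 17.3, 19.9, 15.9 and 25.3 CPM in D1 and 3.67 to 5.40 CPM in D2 nuclei. Penk, the D2 enkephalin gene, was at 49.3 to 67.9 CPM in D1 and at 259 to 351 CPM in D2 nuclei. In every library each D1 marker was higher in D1 than in D2 nuclei and Penk was lower, as the label D1 asks.

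**Figure D1:**
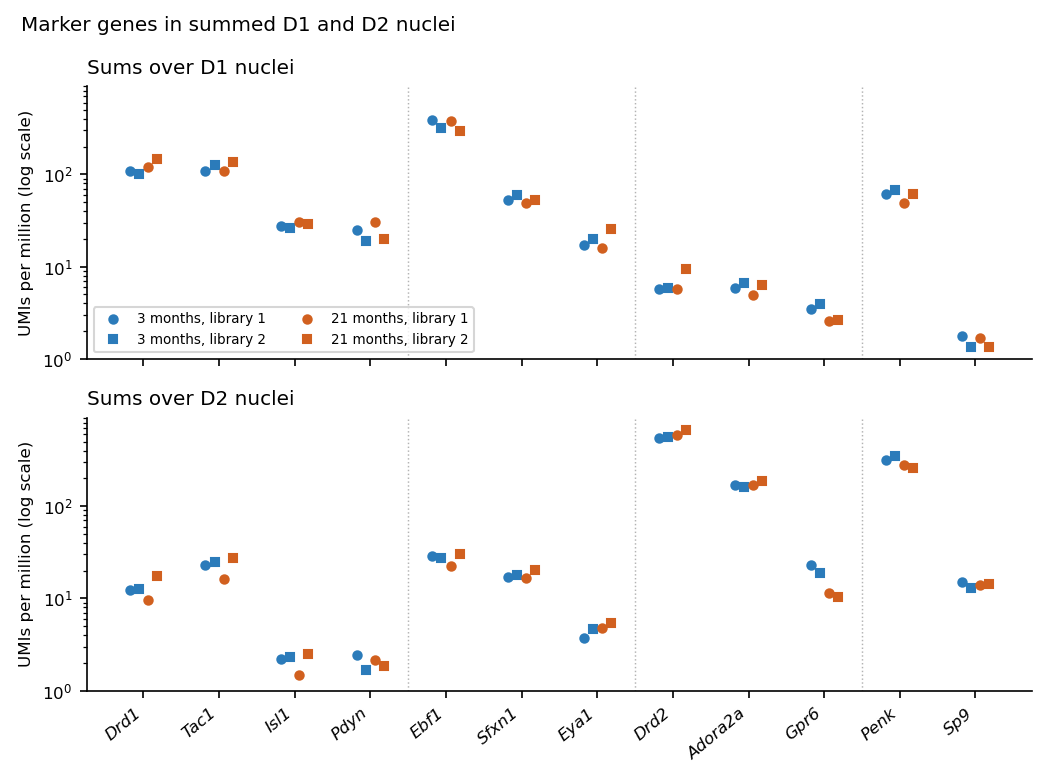
Levels of 12 marker genes (CPM, log scale) in the summed D1 nuclei (top) and D2 nuclei (bottom) of each caudate putamen library; dotted lines part the D1 rule's genes, other D1 markers, the D2 rule's genes and other D2 markers. Ebf1 sits between 295 and 394 in D1 nuclei and between 22.6 and 30.4 in D2 nuclei.

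UMIs of genes in nuclei that should lack them gave the background level. Drd1 UMIs were found in 85.5% to 87.6% of the D1 nuclei of a library. In oligodendrocyte-marker nuclei, which should lack the gene, the share was 10.5% to 15.3%. These nuclei had at least 500 genes, 5 or more UMIs summed over Mog, Mag and Mobp, and under 5 of Rgs9 and Pde10a. Nuclei with more RNA of medium spiny neurons were thus left out of this background. For Tac1 the shares were 80.5% to 87.1% and 20.7% to 30.1%. Its level in the oligodendrocyte-marker nuclei, 85.7, 90.1, 65.5 and 91.4 CPM, was close to that in D1 nuclei (110, 126, 109 and 136 CPM). For Penk the shares were 47.0% to 68.4% of D1 nuclei and 42.8% to 62.0% of the oligodendrocyte-marker nuclei. The oligodendrocyte-marker nuclei were shallower, with medians of 2924 to 3824 UMIs. The myelin gene Mbp had a UMI in 60.6% to 66.2% of D1 nuclei.

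Summed levels of markers of other cells moved with age in the D1 sums. The 6 oligodendrocyte markers summed to 251, 241, 292 and 315 CPM and the 5 astrocyte markers to 20.6, 15.9, 31.7 and 30.7 CPM, both higher in both old libraries. The 5 microglial markers summed to 62.0, 68.1, 63.7 and 65.4 CPM, the 9 interneuron markers to 37.9, 32.1, 28.8 and 37.9 CPM, and the 5 glutamatergic markers to 2.16, 2.33, 2.24 and 9.16 CPM. The endothelial and pericyte markers summed to 4.31 to 11.7 CPM and those of oligodendrocyte precursors to 24.0 to 54.1 CPM, with overlapping ages. No gene of these lists was at 0 in every D1 sum. Nuclei with 5 or more UMIs of any 1 of 6 other cell classes, called mixed here, were 22.4%, 25.3%, 18.7% and 17.8% of the D1 nuclei. They were kept in the main results, and values without them are given where a named gene lost its call. Their share had the same order over the libraries as the median UMIs of the D1 nuclei (16368.5, 17967, 15107.5 and 11938). Both old shares lay below both young ones, although the oligodendrocyte and astrocyte sums were higher there. The cut is in UMIs, so leaving these nuclei out may also remove deeper nuclei, and the 2 were not told apart.

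Levels in D1 and D2 nuclei differed several-fold for a small set of genes (a description, since both rules chose the nuclei by genes of the same cells). Of 5834 genes at 20 CPM or more in the higher type, 48 were at least 2 times higher in D1 nuclei and 37 at least 2 times higher in D2 nuclei. Among adhesion genes, Lingo2 stood at 1552 to 2632 CPM in D1 and 129 to 184 CPM in D2 nuclei, and Cntnap3 at 242 to 281 and 20.5 to 28.1 CPM. Sntg2 (a syntrophin), Mdk (the growth factor midkine), Impg1, Gpr139 (an orphan receptor), Adarb2, Il1rapl2 and the transcription factor Zfp521 followed, with D1 means of 22.8 to 519 CPM against D2 means of 3.29 to 96.3 CPM. In the other direction, the kainate receptor subunit Grik3 stood at 5.49 to 12.7 CPM in D1 and 237 to 352 CPM in D2 nuclei. The delta opioid receptor Oprd1 stood at 1.79 to 4.13 and 67.8 to 86.5 CPM, and the muscarinic receptor Chrm3 at 11.8 to 27.6 and 358 to 548 CPM. Nell1, its antisense gene Nell1os, Plxdc1, Trpc4, Unc5d, Ptprm and Gm11844 were also higher in D2 nuclei. Each of these genes kept its direction in every library.

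Striosomes, islands of the striatum rich in mu opioid receptor, and the surrounding matrix both hold D1 neurons. A D1 nucleus was put in the striosome-high range when Oprm1, Kremen1, Sema5b and Lypd1 summed to at least 3 UMIs and exceeded the sum of the matrix genes Epha4, Id4, Sgk1 and Sv2b. This is a range of a score and not a type, and 4.51% to 7.17% of the D1 nuclei lay near its limit. The range held 297 of 2064 D1 nuclei of young library 1 (14.4%, exact binomial 95% interval 12.9% to 16%), 20% in young library 2 (18.6% to 21.4%), 19.2% in old library 1 (17.5% to 21.0%) and 18.5% in old library 2 (16.9% to 20.1%). The ages overlapped, and the mean difference of 1.62 percentage points had p = 1.00 in the exact two-sided permutation test. Young library 1 alone set its sign: without it the old mean was lower by 1.19 points (-1.19).

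Genes that did not define the range split the same nuclei. Bach2, a transcription factor of striosomes, averaged 405 CPM in the striosome-high nuclei and 132 CPM in the other D1 nuclei, the calcium-binding Necab1 158 and 36.3 CPM, Tshz1 95.6 and 30.3 CPM, and Spon1 75.6 and 21.5 CPM. Each was higher in the striosome-high nuclei of all 4 libraries. Pdyn, Tac1 and Drd1 are genes of the D1 rule, so their levels among the members are a description. In the striosome-high nuclei Pdyn stood at 52.8 against 17.9 CPM, Tac1 at 192 against 106 CPM and Drd1 at 114 against 121 CPM. Ebf1 was lower, at 116 against 391 CPM, and the matrix gene Rasgrp2 at 74.2 against 121 CPM. Other genes known from the matrix did not split this way: Gda stood at 99.5 against 78.6 CPM and Cdh8 at 914 against 927 CPM. Of the striosome genes outside the score Asic4 split least, at 40.7 against 28.3 CPM. Necab1 was mainly a gene of D2 nuclei, at 295 to 414 CPM there against 39.9 to 66.0 CPM in all D1 nuclei.

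The first question the design asks is which genes change with age in D1 neurons. The largest rises were those of Gfap, the astrocyte filament, and C4b, a complement component. The largest falls among named coding genes were Glra2, a glycine receptor subunit, Snrpf, a core protein of spliceosomal ribonucleoproteins, and Dkk2, a secreted modulator of Wnt signalling. Splicing factors and heat shock proteins were also among the falls. Drd1, Tac1, Isl1 and Pdyn chose the nuclei, so their levels, given above, are no test of an age effect.

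Of 17665 genes tested in the D1 sums, 135 were called (Benjamini-Hochberg adjusted p under 0.05 over all genes tested), 49 higher and 86 lower at 21 months. That is 0.764% of the genes (0.277% higher, 0.487% lower), and 3208 genes had an unadjusted p under 0.05. On simulated data of this design such calls held more false ones than the nominal rate. With either old library left out, which leaves 1 sample at 21 months that is assumed to vary like the young ones, no gene was called, with 2429 (without old library 1) and 1933 (without old library 2) unadjusted p values under 0.05. Without young library 1 there were 916 calls, and without young library 2 there were 613. Both of these held all 135 genes. The folds of C4b and Snrpf moved little without an old library. C4b stood at 3.17 and 3.21 without old library 1 and 2, and Snrpf at -1.84 and -1.82, against 3.20 and -1.83 with all libraries. Other genes differed more between the old libraries, such as Gfap (2.36 and 1.23 CPM). Young library 2 was also the only one made with another version of the counting software. When each of the 8 animals gave its own D1 sum, with sex as a term, 368 genes were called (152 higher, 216 lower), 110 of them among the 135.

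**Figure D2:**
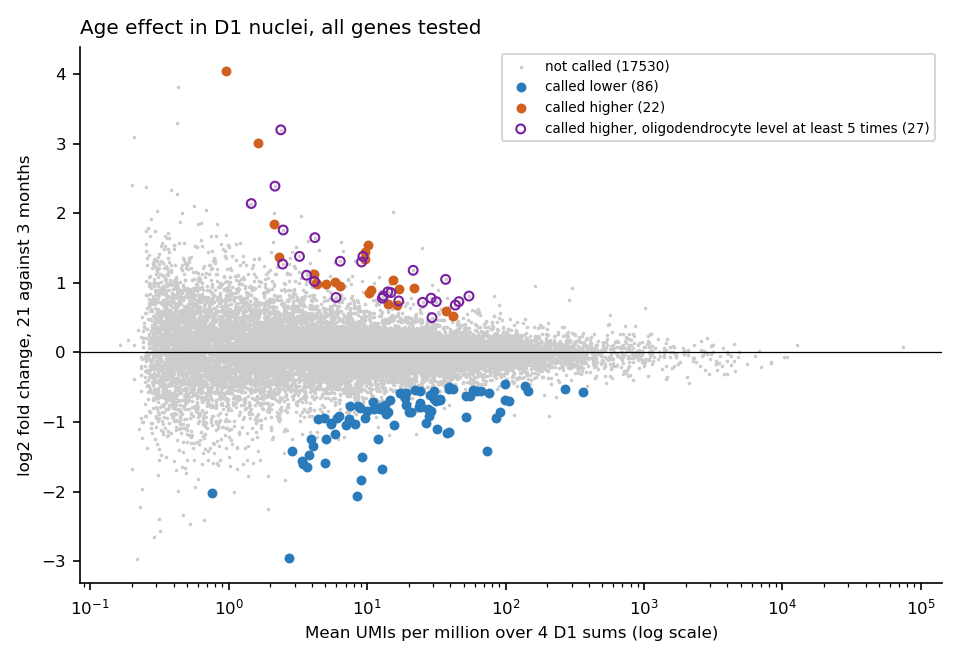
Log2 fold change at 21 against 3 months and mean level (CPM, log scale) of all 17665 genes tested in the summed D1 nuclei; filled points are the 86 genes called lower and 22 of the 49 called higher, and open circles the 27 called higher whose level in oligodendrocyte-marker nuclei was at least 5 times that in D1 nuclei. Every rise called has a mean below those of the most abundant falls, such as Ddx5 and Ptprn.

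Many rises were in genes with a much higher level in oligodendrocyte-marker nuclei than in D1 nuclei. Of the 49 genes called higher, 27 (55.1%) had a level at least 5 times higher in oligodendrocyte-marker nuclei than in D1 nuclei, against 7.34% of all genes tested and none of the 86 genes called lower. C4b stood at 0.561, 0.383, 4.32 and 4.26 CPM in D1 nuclei, which is 3.20 ± 0.24 higher on the log2 scale (SE; edgeR adjusted p = 0.0164). Both old libraries lay far above both young ones. In the oligodendrocyte-marker nuclei of the same libraries C4b stood at 11.3, 12.7, 98.4 and 103 CPM. Gfap had 4, 6, 76 and 38 UMIs in D1 nuclei, or 0.112, 0.0999, 2.36 and 1.23 CPM, with a log2 fold change of 4.04 ± 0.49 (edgeR adjusted p = 0.0327). It was not among the 27, and its level in oligodendrocyte-marker nuclei was 1.46, 0, 5.95 and 5.34 CPM.

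Other rises among those 27 genes were Gm36855, 5033421B08Rik, Fbxw15 and Abca8a, a lipid transporter of oligodendrocytes. Their levels in oligodendrocyte-marker nuclei were 31.8 to 360 CPM, against 0.483 to 6.69 CPM in D1 nuclei. Among the 5 most abundant rises, St18 (40.9, 37.4, 67.1 and 72.5 CPM) is a transcription factor of oligodendrocytes, and its level in oligodendrocyte-marker nuclei was 3864 to 4614 CPM. Npas3 (37.7, 31.1, 57.6 and 57.8 CPM) and Zeb2 (35.1, 31.2, 50.1 and 57.2 CPM), both transcription factors, were also higher in those nuclei, at 800 to 1107 and 2317 to 2670 CPM. The marker sums given above hold some of the called genes. Without St18 the other 5 oligodendrocyte markers summed to 210, 204, 224 and 243 CPM, still higher in both old libraries. Without Gfap and Slc1a3 the other 3 astrocyte markers summed to 7.52, 3.66, 8.99 and 7.27 CPM, and these sums overlapped between the ages.

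Values without mixed nuclei are given beside these. Fbxw15 was not tested there. In the remaining D1 nuclei 52 genes were called, 14 higher and 38 lower, and 50 of them were among the 135. C4b was called there at a log2 fold change of 3.53 (adjusted p = 0.0179), though not under the stricter rule, which asks for 5 UMIs of the D1 markers and none of the D2 markers (2.94, adjusted p = 0.0754). Without mixed nuclei Abca8a (1.17, adjusted p = 0.120), Gm36855 (1.83, 0.179), 5033421B08Rik (1.39, 0.231), St18 (0.85, 0.306; 0.81 with all nuclei), Npas3 (0.50, 0.125), Zeb2 (0.36, 0.488) and Gfap (2.95, 0.0665) were not called. St18 and Gfap are themselves markers of the mixed cut, so nuclei rich in them were removed by the genes judged here. In the fit by animal St18, Npas3 and Zeb2 also missed the threshold, at 0.94 (adjusted p = 0.0855), 0.53 (0.255) and 0.72 (0.145), against 0.81, 0.73 and 0.68 in the library sums. The part of glial RNA in these rises was not tested.

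Other rises had a mean level in oligodendrocyte-marker nuclei under 5 times that in D1 nuclei. Ntng2, a netrin-G adhesion protein of the synapse, stood at 4.54, 5.71, 13.7 and 16.9 CPM, a log2 fold change of 1.54 ± 0.16 (adjusted p = 0.0286), and was called at 1.50 without mixed nuclei (adjusted p = 0.0328). Its level in oligodendrocyte-marker nuclei was 16.3 to 22.7 CPM. Vmn1r90, annotated as a vomeronasal receptor, rose from 0.308 and 0.383 to 2.30 and 3.55 CPM and stood at 0.123 to 0.722 CPM in oligodendrocyte-marker nuclei. Its log2 fold change was 3.01, and 1.75 with nuclei thinned to 4000 UMIs (adjusted p = 0.135). Bsph1, a binder of sperm protein homolog, rose from 0.925 and 0.899 to 3.86 and 2.78 CPM. 3222401L13Rik, a noncoding gene, rose from 5.21 and 5.01 to 13.3 and 15.1 CPM, with 31.2, 41.4, 55.4 and 52.4 CPM in oligodendrocyte-marker nuclei, which is over 5 times the D1 level in the young libraries alone. Nmnat3, an enzyme of NAD synthesis, rose from 28.9 and 29.7 to 43.1 and 46.8 CPM, and Zfp346, which binds double-stranded RNA, from 32.0 and 35.0 to 48.8 and 50 CPM. Without mixed nuclei Nmnat3 and Zfp346 missed the threshold at nearly the same size (0.63, adjusted p = 0.0505, and 0.52, 0.0659, against 0.59 and 0.53).

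**Figure D3:**
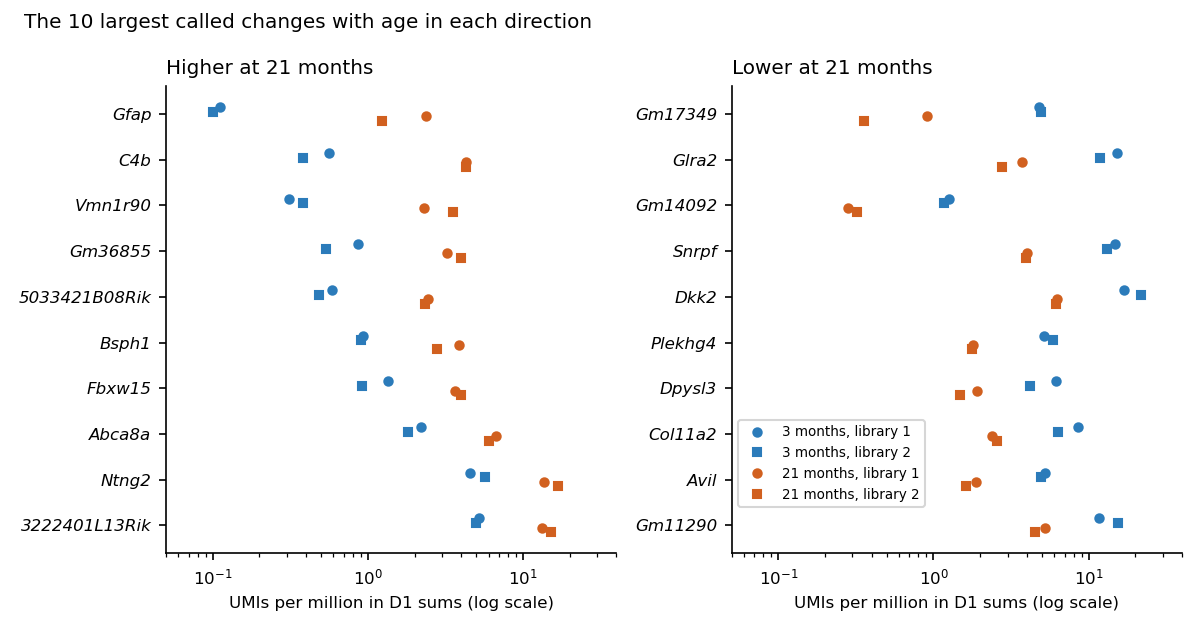
Level of the 10 genes with the largest called rise (left) and fall (right) in the summed D1 nuclei of each library (CPM, log scale). The 2 young and the 2 old libraries do not overlap for any of these genes, which was a condition for naming them.

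Among the falls, Glra2 stood at 15.2, 11.9, 3.73 and 2.78 CPM, a log2 fold change of -2.07 ± 0.18 (adjusted p = 0.0271). Both old libraries lay far below both young ones. Snrpf stood at 14.7, 13.2, 3.98 and 3.97 CPM (-1.83 ± 0.11, adjusted p = 0.0138). Dkk2 stood at 16.8, 21.9, 6.28 and 6.13 CPM (-1.67 ± 0.16, adjusted p = 0.0284). All 3 were called in the fit by animal, at -1.92, -1.73 and -1.76. Without mixed nuclei Snrpf and Dkk2 were called, and Glra2 was not (-2.05, adjusted p = 0.0592). With nuclei thinned to 4000 UMIs Glra2 and Snrpf were called, and Dkk2 was not (-1.75, adjusted p = 0.112).

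The other large falls were Plekhg4 (5.18, 5.86, 1.80 and 1.77 CPM), Dpysl3, a cytoskeletal protein of growing axons (6.14, 4.16, 1.90 and 1.48 CPM), the collagen gene Col11a2 (8.49, 6.38, 2.40 and 2.58 CPM) and Avil, an actin-binding protein (5.24, 4.91, 1.87 and 1.61 CPM). The predicted genes Gm17349 (4.76, 4.91, 0.902 and 0.355 CPM), Gm14092 and Gm11290 fell as well. Without mixed nuclei Dpysl3 (-1.78, adjusted p = 0.163) and Gm14092 (-2.19, 0.0931) were not called. Gm17349 had the largest fall of all named genes, -2.95 ± 0.34 on the log2 scale (adjusted p = 0.0337). Several of these falls were seen in other nuclei: in the oligodendrocyte-marker nuclei Snrpf stood at 29.1, 26.4, 7.91 and 7.37 CPM and Gm17349 at 3.95, 3.81, 0.781 and 0.144 CPM. In D2 nuclei the age effect of Glra2 was -1.99 and that of Snrpf -1.80, and their D1 minus D2 differences, -0.07 and -0.03, were not called.

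The most abundant falls were smaller. Ddx5, an RNA helicase of splicing and transcription, stood at 440, 422, 299 and 291 CPM (-0.57 ± 0.08, adjusted p = 0.039). Ptprn, a protein of dense-core vesicles, stood at 318, 312, 219 and 226 CPM (-0.53 ± 0.07, adjusted p = 0.0398). Ttyh1 (182, 162, 116 and 121 CPM), the creatine kinase Ckb (163, 160, 116 and 117 CPM) and the noncoding Gm13974 (121, 139, 84.2 and 78.1 CPM) followed. Without mixed nuclei none of these 5 was called, although the falls were of nearly the same size: Ddx5 -0.55 (adjusted p = 0.0505), Ptprn -0.50 (0.0592), Ttyh1 -0.57 (0.0505), Ckb -0.50 (0.0538) and Gm13974 -0.66 (0.0603).

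Short genes were more frequent among the falls. The median gene length was 9234 bases for the 86 genes called lower, 66842 for the 49 called higher and 23444 over all genes tested, and over all genes the rank correlation of log2 fold change with length was 0.117 (across genes, which are not independent). With the trend of each library with gene length removed, 26 genes were called, 14 higher and 12 lower, all among the 135. C4b, Ntng2, Abca8a, St18, Glra2, Snrpf, Dkk2, Plekhg4, Col11a2 and Avil were called there. Ddx5 (-0.50, adjusted p = 0.0682), Ptprn (-0.50, 0.0548) and Ckb (-0.37, 0.0856) were not, nor were the splicing and heat shock genes named next.

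Chaperones and splicing factors held 8 of the falls. Of 38 heat shock and chaperone genes tested, 3 fell and none rose (7.89%, against 0.487% of all genes called lower and 0.764% in all), and 4 of the 38 had a positive log2 fold change, with a median of -0.24 against 0.00 over all genes. Hspa8, the constitutive Hsp70, stood at 76.8, 70.8, 53.3 and 48.2 CPM (adjusted p = 0.0415), Hspa5, the Hsp70 of the endoplasmic reticulum, at 36.6, 37.6, 22.5 and 24.9 CPM (adjusted p = 0.0337), and Chordc1, an Hsp90 partner, at 47.2, 43.9, 32.1 and 32.0 CPM (adjusted p = 0.0393). With the length trend removed the list's median was -0.18, and these genes stood at -0.50 (adjusted p = 0.0788), -0.58 (0.0548) and -0.52 (0.0548), against -0.56, -0.67 and -0.53 without that correction. The list's median was -0.09 with female nuclei alone and -0.32 with male nuclei alone. Without mixed nuclei Hspa8 was called, and Hspa5 (-0.65) and Chordc1 (-0.54) both had an adjusted p of 0.0505. By animal Hspa5 was not called (-0.62, adjusted p = 0.0581). In D2 nuclei 11 of the 38 fell and none rose (28.9%, against 505 of all 18380 genes called lower there). Hspa8, Hspa5 and Chordc1 were among them, and no difference between the types was called.

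Of 51 splicing factors and ribonucleoproteins, 5 fell and none rose (9.80%, against 0.487% of all genes called lower), with a list median of -0.07. The SR proteins Srsf5 (124, 117, 78.5 and 74.0 CPM), Srsf6 (25.3, 22.6, 14.7 and 14.2 CPM) and Srsf9 (29.4, 24.0, 13.8 and 16.2 CPM) had log2 fold changes of -0.68, -0.75 and -0.85. Hnrnph1 (69.1, 66.8, 48.8 and 46.4 CPM) and the neuronal Celf3 (115, 114, 85.6 and 84.0 CPM) fell by less, at -0.54 and -0.46. With the length trend removed none of the 5 was called, at somewhat smaller falls of -0.58 (Srsf5), -0.65 (Srsf6), -0.76 (Srsf9), -0.47 (Hnrnph1) and -0.42 (Celf3), and the smallest adjusted p was 0.0548, for Srsf5. Without mixed nuclei Srsf5, Srsf6 and Hnrnph1 were called, and Srsf9 (-0.83, adjusted p = 0.0505) and Celf3 (-0.43, 0.0676) were not. In D2 nuclei 8 of the 51 fell and none rose (15.7%), these 5 among them, and no difference between the types was called.

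The clustered protocadherins, cell-surface proteins whose combinations give neurons an identity code, leaned upward as a family. Of 51 genes tested, 49 had a positive log2 fold change, with a median of 0.47. Over all 17665 genes tested 8904 were positive, with a median of 0.00. Pcdhb7 alone was called, 1.96% of the list against 0.277% of all genes called higher. It stood at 2.83, 2.91, 5.38 and 6.26 CPM (0.99 ± 0.15, edgeR adjusted p = 0.0459, and 1.06 and 0.0613 without mixed nuclei). Both old libraries lay above both young ones for 9 of 13 alpha, 15 of 19 beta and 19 of 20 gamma genes, against 27.9% of all genes tested. Here Pcdha11 counts under each of its 2 gene IDs, which makes 52 entries, 50 of them positive. The summed level was 17.4, 17.1, 26.6 and 23.3 CPM for the alpha, 33.7, 38.9, 54.2 and 56.2 CPM for the beta and 69.4, 65.3, 84.1 and 86.7 CPM for the gamma cluster. The list's median ranged from 0.41 to 0.53 over all alternatives, both scalings included. Alpha and gamma genes share their last exons, so their reads could be split between members, and the members are not independent. In D2 nuclei 7 of 53 rose (13.2%, against 426 of all 18380 genes called higher in D2), and no difference between the types was called.

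Signalling genes of D1 neurons held few changes. With the genes of the rule left out, none of 33 genes of dopamine and cyclic AMP signalling was called (median -0.04, range -0.46 to 0.78). The calcineurin subunit Ppp3ca stood at 2859, 2831, 2867 and 2846 CPM. None was called among 15 neuropeptide and neuropeptide receptor genes (median -0.15) or 17 receptors for acetylcholine, serotonin, adenosine and cannabinoids (-0.07), again without the rule's genes, nor among 40 glutamate receptor and scaffold genes (-0.05) or 21 genes of the inhibitory synapse (-0.07). In these lists Htr2c, the serotonin receptor with the highest level, stood at 382, 320, 367 and 309 CPM, Dlg2, a synaptic scaffold, at 8598, 8592, 8322 and 7431 CPM, and Grm5 at 4420, 4523, 4279 and 3758 CPM. Each of these lists is read against the 0.764% of all genes called, at which a list of this size would hold no call or few.

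Lists without a call also included 75 potassium channels (median 0.04), 35 sodium and calcium channels (0.00), 29 transcription factors of medium spiny neurons, without Isl1 (0.02), 29 clock and glucocorticoid response genes (0.10), 29 semaphorins, plexins and neuropilins (-0.07), 82 ribosomal proteins (-0.10) and 37 proteasome subunits (-0.08). Foxp1, a striatal transcription factor, stood at 2511, 2735, 2895 and 3270 CPM, and Kcnd2, a subunit of the A-type potassium current, at 6509, 6317, 6378 and 6244 CPM. Of 92 oxidative phosphorylation genes 1 fell (1.09%, near the 0.764% of all genes), the complex I assembly factor Ndufaf4 (35.5, 36.8, 25.4 and 24.5 CPM; -0.56, and -0.60 with adjusted p = 0.0505 without mixed nuclei), and 21 had a positive log2 fold change (median -0.14). Of 16 interferon, MHC class I and complement genes 2 were called (12.5%): C4b rose and Irf9, a partner of the interferon-activated STAT factors, fell (7.68, 6.93, 3.70 and 3.61 CPM; -1.02 ± 0.13, adjusted p = 0.0337; -0.94 and 0.0681 without mixed nuclei). Immediate early genes, which neurons switch on within minutes of activity, had no call among 24 in D1 nuclei (median -0.15), and the median was -0.41 without young library 1 and 0.36 without young library 2.

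The second question is whether D1 and D2 neurons age alike. It was tested as the D1 age effect minus the D2 age effect, with each library as a block, so that a positive value means a greater rise or a smaller fall in D1. In D2 nuclei alone 931 of 18380 genes (5.07%) were called with age. D2 sums hold more nuclei, so this count is no measure of a larger effect. The D2 calls included many of those named for D1, in the same direction. C4b, St18, Npas3, Zeb2, Ntng2, Nmnat3 and Zfp346 rose there. Glra2, Snrpf, Dkk2, Plekhg4, Avil, Ddx5, Ptprn, Ttyh1, Ckb, Irf9 and Ndufaf4 fell there. Gfap was not among the D2 calls, although both old D2 values lay above both young ones (0.42, 0.0755, 2.16 and 1.13 CPM). It was not among the calls for the difference either. The difference itself was called for 53 of 18891 genes (0.281%), 25 positive and 28 negative, and 1118 had an unadjusted p under 0.05. The positive calls included 6 immediate early genes, and the smallest p among the negative calls belonged to Nos1. Without young library 2 there were 226 calls, without young library 1 there were 104 and without old library 2 there were 20.

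No call was made by animal. With a D1 and a D2 sum for each of the 8 animals and the animal as a block, no gene of 16056 passed (963 had an unadjusted p under 0.05, edgeR). With nuclei of the 4 females alone 36 were called, and with those of the 4 males 4. The numbers below are from the library sums, and each library joins 2 animals.

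Rgs2, a regulator of G protein signalling, had the smallest p among the positive calls, with a difference of 0.56 ± 0.06 (SE, adjusted p = 1.59e-05, edgeR). It stood at 46.0, 58.5, 46.6 and 58.5 CPM in D1 and at 43.4, 53.7, 31.0 and 35.0 CPM in D2 nuclei. The D1 ages overlapped, and both old D2 values lay below both young ones. By animal the difference was 0.62 (adjusted p = 0.837). Sema6d, an axon guidance ligand, stood at 468, 436, 349 and 306 CPM in D1 and 279, 251, 172 and 146 CPM in D2 nuclei, and its difference was 0.27 ± 0.04 (adjusted p = 0.00128; 0.34 and 0.175 by animal). Dkk2 was at 6.96, 9.83, 1.25 and 1.25 CPM in D2 nuclei, and its difference of 1.10 ± 0.15 (adjusted p = 0.00039; 0.97 and 0.128 by animal) reflects the smaller log2 fall in D1. Rnd3 stood at 18.3, 43.8, 15.6 and 12.6 CPM in D1 and 11.8, 28.0, 6.12 and 5.48 CPM in D2 nuclei (0.64 ± 0.09, adjusted p = 0.000814; 0.76 and 0.803 by animal).

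The immediate early genes called were Fos, Fosl2 and Junb of the AP-1 family, Egr1 and Egr4, which encode zinc finger factors, and the clock gene Per1. That is 6 of 25 tested (24.0%), all positive, against 0.281% of all genes in either direction and 25 positive calls among all 18891 genes. The count was 3 without old library 1 (Junb, Egr1 and Egr4), 11 without young library 1 and 14 without young library 2. DESeq2 called 4, among them Junb and Egr1 but not Fos (adjusted p = 0.597), Fosl2, Egr4 or Per1. With edgeR Junb lost its call at equal numbers of nuclei (0.81, adjusted p = 0.353). It also lost it without nuclei that had UMIs of both Xist and Y-linked genes (1.05, 0.57). The difference was positive for 24 of the 25, with a median of 0.50. Fos stood at 5.32, 11.8, 7.62 and 6.81 CPM in D1 and at 3.73, 8.12, 2.38 and 2.74 CPM in D2 nuclei. Within a library, the D1 level divided by the D2 level was 1.43, 1.45, 3.20 and 2.48 for Fos, 1.73, 1.49, 2.68 and 3.10 for Junb, 1.29, 1.35, 1.98 and 2.39 for Egr1 and 1.09, 1.31, 2.02 and 2.15 for Egr4. All 4 genes were higher in D1 than in D2 nuclei of every library, and the ratios of the old libraries lay above those of the young. This order of the ratios held for 22 of the 25 genes, against 17.2% of all genes tested.

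The start regions of 3 of these genes are shown as examples with the motif, since immediate early genes are known targets of cyclic AMP signals. The 250 bases before each gene's start were read from the RefSeq table of GRCm38.p6, on the gene's strand, with the core of the cyclic AMP response element, TGACG or its reverse complement CGTCA, in capitals.
Fos, chr12:85473640-85473889, plus strand: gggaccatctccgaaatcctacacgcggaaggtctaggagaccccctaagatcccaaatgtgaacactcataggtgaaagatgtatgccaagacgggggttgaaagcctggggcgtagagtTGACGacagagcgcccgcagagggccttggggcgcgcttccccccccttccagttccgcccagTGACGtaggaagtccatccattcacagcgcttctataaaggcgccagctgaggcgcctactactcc
Junb, chr8:84978749-84978998, minus strand: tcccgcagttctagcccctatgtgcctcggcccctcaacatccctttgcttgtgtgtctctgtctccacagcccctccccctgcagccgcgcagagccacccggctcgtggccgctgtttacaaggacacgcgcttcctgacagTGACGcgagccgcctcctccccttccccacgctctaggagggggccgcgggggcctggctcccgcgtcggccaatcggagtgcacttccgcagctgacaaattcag
Egr4, chr6:85513590-85513839, minus strand: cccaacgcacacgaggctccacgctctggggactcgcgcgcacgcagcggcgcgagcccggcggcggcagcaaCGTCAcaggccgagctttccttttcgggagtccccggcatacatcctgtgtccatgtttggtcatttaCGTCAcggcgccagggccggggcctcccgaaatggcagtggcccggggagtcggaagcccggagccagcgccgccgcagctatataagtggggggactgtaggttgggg
The first base of the match lay 129 and 66 bases before the start of Fos, 106 before that of Junb and 177 and 109 before that of Egr4. Of the 6 called genes Egr1 was left out of this reading, so its start region was not examined. Of the other 5 called genes 4 had such a match in at least 1 window of 250 bases. The window of Fosl2 had none. Over all 32851 windows 17.8% held TGACG or CGTCA, on either strand, and 1.55% the whole palindrome TGACGTCA. A match of letters is a description and no evidence of a bound site.

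The immediate early genes also showed how far single animals set the library values. Their summed level, without Homer1, was 416, 650, 476 and 594 CPM in D1 and 331, 477, 240 and 291 CPM in D2 nuclei, so the D1 to D2 ratio was 1.25, 1.36, 1.98 and 2.04. Split by sex, the ratio in the females of these libraries was 1.70, 0.909, 2.49 and 2.33, and in the males 1.00, 2.04, 1.37 and 1.93. Both old females lay above both young ones, while the males overlapped. The same order of the ratio of each gene held for 19 of 25 genes in females (16.8% of all genes) and 1 of 25 in males (16.2% of all genes). By animal none of 23 immediate early genes tested was called, with 22 positive differences and a median of 0.52. The median difference was 1.07 in females and 0.06 in males, and Fos had a difference of 2.00 in females and -0.12 in males.

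**Figure D4:**
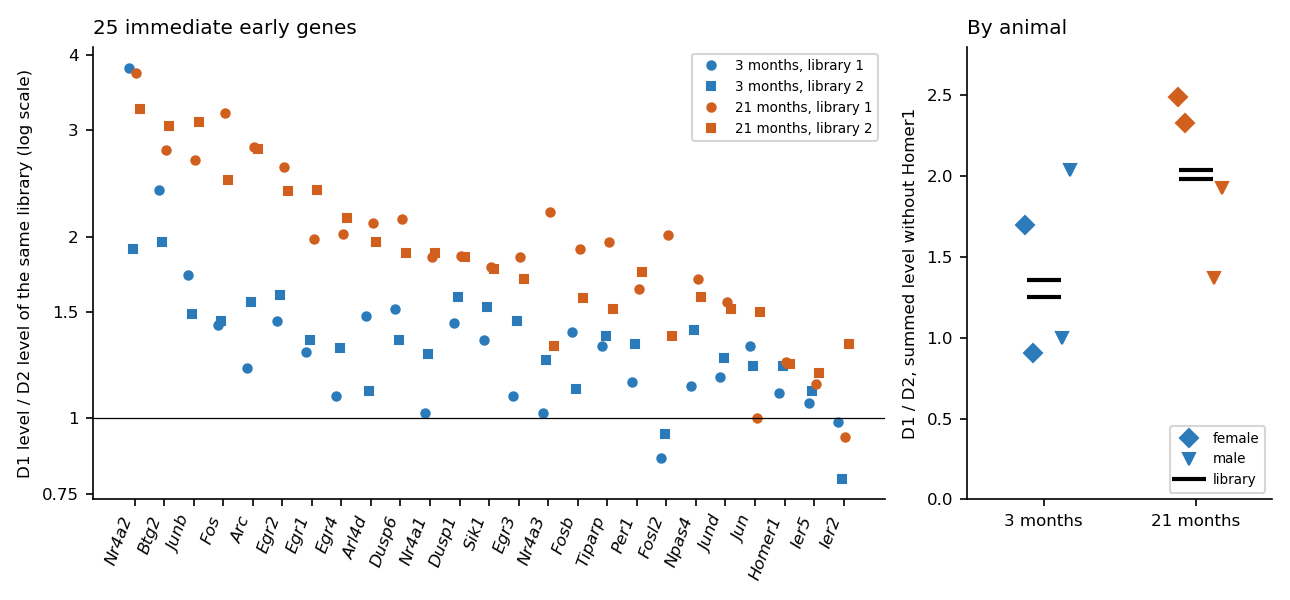
Left: D1 level divided by the D2 level of the same library (log scale) for 25 immediate early genes; right: the same ratio for their summed level without Homer1, with bars for libraries and symbols for the female and the male animal of each (blue 3 months, orange 21 months). The library ratios are 1.25 and 1.36 at 3 months and 1.98 and 2.04 at 21 months, and the ratios of single animals run from 0.909 to 2.49.

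Nos1 and Sox6 had the smallest p among the negative calls. Nos1, neuronal nitric oxide synthase, had the smallest p of all, with a difference of -2.07 ± 0.13 (adjusted p = 2.23e-09, edgeR). It stood at 10.5, 8.34, 7.84 and 8.81 CPM in D1 and at 2.50, 1.93, 7.57 and 8.78 CPM in D2 nuclei. Striatal interneurons of the Sst, Npy and Nos1 type carry it at high levels. Among D1 nuclei 10, 16, 5 and 6 had 5 or more Nos1 UMIs, all of them with UMIs of Sst or Npy, and they held 76.6%, 80.6%, 40.5% and 48.4% of the Nos1 UMIs of the D1 sums.

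Without the nuclei that had 5 or more UMIs of 9 interneuron markers (22, 33, 11 and 13 D1 nuclei, 0.535% to 1.07%), Nos1 stood at 2.16, 1.55, 4.48 and 4.52 CPM in D1 and at 2.12, 1.93, 6.36 and 5.44 CPM in D2 nuclei. Nos1 marked these nuclei itself, so its level had to fall. Its old values then lay above its young values in both types, and the difference was -0.23 (adjusted p = 0.968). Sox6, a transcription factor of interneurons, moved from -0.97 to -0.39 (adjusted p = 0.966), Tox, a DNA-binding factor, from -1.15 to -0.59 (0.239) and Gm38505 from -0.66 to -0.01 (0.997). The D2 level of Tox was still higher at 21 months without these nuclei (4.23, 4.86, 9.22 and 9.43 CPM). Without all mixed nuclei Nos1 was called (-1.63, adjusted p = 0.000123), and Sox6 (-1.32, 0.851), Tox (-1.43, 0.225), Gm38505 (-0.44, 0.125) and Per1 (0.48, 0.246) were not. Slc44a5, a choline transporter-like gene, stood at 72.1, 69.6, 72.6 and 68.7 CPM in D1 and 31.2, 28.1, 41.1 and 40.8 CPM in D2 nuclei. It kept its call without these nuclei (-0.43, adjusted p = 0.000422) but not by animal (-0.51, 0.455).

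**Figure D5:**
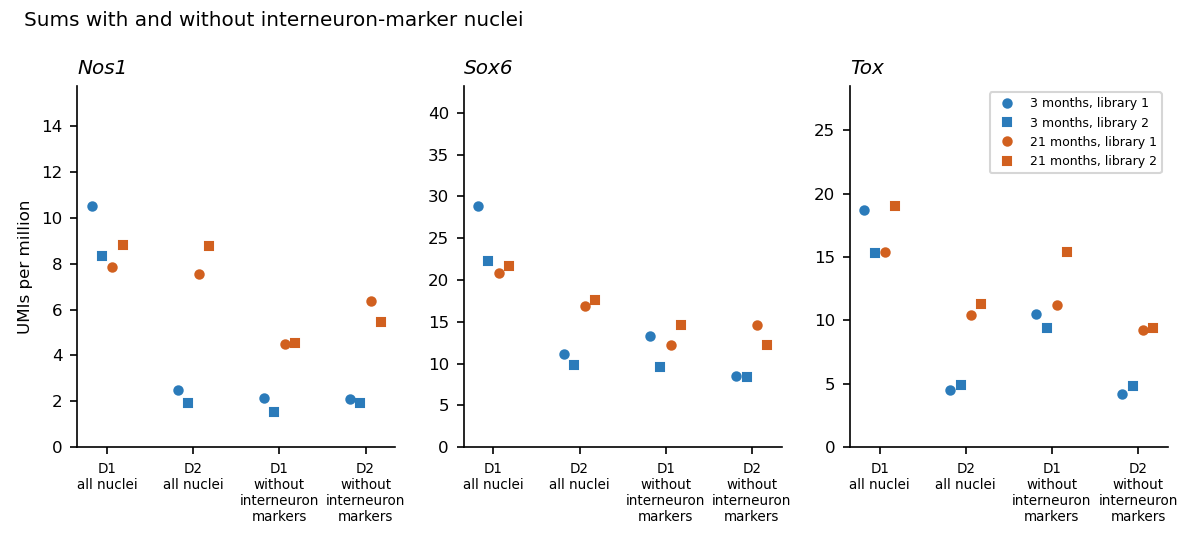
Levels of Nos1, Sox6 and Tox (CPM) in the summed D1 and D2 nuclei of each library, with all nuclei and without those that had 5 or more UMIs of interneuron markers. Nos1 in young D1 nuclei goes from 10.5 and 8.34 to 2.16 and 1.55, and its values at 21 months stay above 4 in both types.

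In the same reduced set 51 genes were called for the difference, 39 of them among the 53, and 172 for the D1 age effect, 132 of them among the 135. The values given for Rgs2, Dkk2, Sema6d, Fos, Junb, Egr1 and Egr4 kept their calls there, while Fosl2 did not (adjusted p = 0.0803).

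Each library mixed 1 female and 1 male, which allowed D1 nuclei to be compared between the sexes inside a library. A nucleus was female with a UMI of Xist and none of the Y-linked Ddx3y, Eif2s3y, Kdm5d and Uty, and male in the opposite case. This gave 696, 1348, 929 and 968 female and 865, 989, 649 and 727 male D1 nuclei. Another 19.2% to 25.3% of the D1 nuclei of a library had UMIs of both sexes' genes and were left out here. These were deeper, with medians of 13710 to 20206 UMIs against 11646 to 17392 in the others.

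With Xist, Tsix and Y-linked genes left out, 1 gene of 15758 (0.00635%) was called between the sexes. It was the noncoding Gm26854, higher in females (log2 1.27 ± 0.13, adjusted p = 0.038, edgeR), and 498 had an unadjusted p under 0.05. Its level in the female and the male nuclei was 14.5 and 4.94 CPM in young library 1, 20 and 8.54 in young library 2, 11.8 and 4.64 in old library 1 and 7.77 and 3.82 in old library 2. It was thus higher in the female of every library. The count was 24 without old library 1 and 0 without any other single library. Next by p, not called, came the X-linked Jpx (log2 0.56, adjusted p = 0.178), the autosomal Clmp (0.66, 0.178) and the X-linked Kdm6a, a gene known to escape X inactivation (0.53, 0.276).

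The age effect was not shown to differ between the sexes for any gene: 0 of 15758 were called with edgeR, 692 had an unadjusted p under 0.05, and DESeq2 called 10. With edgeR the count was 24 without old library 2, 15 without young library 1 and 10 without young library 2. The smallest p belonged to Rnd3, with a female minus male age effect of 2.77 ± 0.30 (adjusted p = 0.242). Rnd3 stood at 12.7 CPM in the female and 23.7 CPM in the male of young library 1 and at 31.7 and 58.7 CPM in young library 2. In the old libraries the order was the opposite, 26.3 and 4.74 CPM and 19.1 and 7.86 CPM. Irs2, an adaptor of the insulin receptor, Midn, and the immediate early gene Egr3 came next, at 2.05, 2.33 and 1.96 (adjusted p = 0.242 to 0.319). Each sex had 2 animals per age.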

How the data were processed

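The matrices deposited by the authors held unscaled UMI counts for each gene in each barcode. Per the file headers, 7 libraries were made with Cell Ranger 6.1.2 and 1, young caudate putamen library 2, with 7.0.0, while the submitters' processing notes name Cell Ranger 4.0.0 and mm10. Whether intronic reads were counted is not given in the sources used here. Version 7.0.0 counts them by default and 6.1.2 does not, so what was counted may differ in young library 2, which was not tested.

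Counts were summed over the D1 or D2 nuclei of each library and tested with edgeR 4.0.16 (TMM, filterByExpr, robust quasi-likelihood test, R 4.3.3) or, as an alternative, DESeq2 1.42.0. A call is a Benjamini-Hochberg adjusted p under 0.05 over all genes tested. Shares were compared with an exact permutation test in Python 3.11.15 (SciPy 1.17.1). The tests were checked on simulated data, where calls of the age and sex effects held more false ones than the nominal rate. No doublet caller was run, and mixed nuclei were left out in an alternative instead. The analysis took gene lengths from GENCODE vM21 (GRCm38).

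Named genes were the 10 largest called age changes in each direction and the 5 most abundant, with both old libraries on 1 side of both young ones. To these were added the rule's genes, the called members of each list (or its 2 most abundant), and the 5 genes of smallest p in each direction of the D1 minus D2 test. Of the D1 and D2 level differences the 10 largest in each direction were named. Genes outside this rule (the other immediate early genes, markers, and those by smallest p in the tests of sex) were named with their values known. Members, lists and rules were chosen with earlier results of these data known. Fits by animal, by sex for the D1 minus D2 difference, and without interneuron-marker or both-sex nuclei were added after seeing the data. The p-values measure the spread between these libraries. No label says that replicate numbers pair libraries across ages.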

Additional observations from a re-analysis of the deposited data

Results flagged for a closer look

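The age effect differed between D1 and D2 nuclei, by the test of the difference itself, for 53 genes. Among the genes named, the D1 minus D2 difference on the log2 scale was positive for Rgs2 (0.56), Egr4 (0.77), Dkk2 (1.10), Rnd3 (0.64), Sema6d (0.27), Fos (0.95), Fosl2 (0.84), Junb (0.86), Egr1 (0.73) and Per1 (0.44). It was negative for Nos1 (-2.07), Sox6 (-0.97), Slc44a5 (-0.48), Tox (-1.15) and Gm38505 (-0.66). None of them was called with sums per animal, and without interneuron-marker nuclei Nos1 (-0.23), Sox6 (-0.39), Tox (-0.59), Gm38505 (-0.01) and Fosl2 (0.84) were not called either. Outside the caudate putamen, 30 of 46752 hippocampal barcodes met the D1 rule and 67 met the mirrored D2 rule. The source of these UMIs was not tested.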

How the results depend on the processing

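Main counts were 135 genes for the D1 age effect, 53 for the D1 minus D2 difference, 1 for sex and 0 for sex by age; the cause of the changes was not tested. For the age effect DESeq2 called 421 genes, no filter on low counts 817, equal numbers of nuclei 222, sums per animal 368, the stricter rule 45, removal of mixed nuclei 52, removal of the length trend 26, female nuclei 1 and male nuclei 0. Leaving out 1 library gave 0 to 916. A fit with the replicate number as a block called 1725 genes, including all 135. The numbers are not known to pair libraries: deviations of same-numbered libraries correlated at 0.52 over 10414 genes, with only 2 pairs. RLE and upper-quartile factors (147 and 133 calls), a floor of 1000 genes (135), thinning (98), removal of the deepest nuclei (147), of interneuron-marker nuclei (172) and of nuclei with markers of both sexes (91) stayed within 1.5 times the count, but not with the same genes: 73 of the 135 were called after thinning, 83 without nuclei with markers of both sexes (15 of 41 named genes lost) and 132 without interneuron-marker nuclei. The stricter rule ended 27 of the 41 named calls, among them C4b, Col11a2, Plekhg4, Avil, Irf9, Hspa8, Hspa5, Srsf6, Srsf9 and Hnrnph1. Among the named genes, 12 were not called after thinning: Vmn1r90, Gm36855, Bsph1, Fbxw15, Dkk2, Dpysl3, Hspa8, Chordc1, Irf9, Celf3, Srsf9 and Pcdhb7. Gfap and Gm14092 were not tested there. The share of rises among calls was 36.3%, and 53.8% with the length trend removed.

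For the difference DESeq2 called 14 genes, no filter 162, the stricter rule 19, removal of mixed nuclei 24, male nuclei 4, sums per animal 0, and leaving out 1 library 20 to 226. For sex DESeq2 called 8, no filter 6, the stricter rule 0, and leaving out 1 library 0 to 24. For sex by age DESeq2 called 10, no filter 16, the stricter rule 3, and leaving out 1 library 0 to 24. The D1 share difference was 0.0971 points after thinning. The striosome-high difference ran from -1.19 to 4.43 points when 1 library was left out.

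Some log2 fold changes changed sign, none of them called, among them that of Homer1 (-0.23 in the main fit). The called D1 minus D2 difference of Fos (0.95) did so too. Tac1, Isl1, Pdyn and Pde10a chose the nuclei, so their values are descriptions. Over the fits that left out 1 library Tac1 ran from -0.14 to 0.18, Pdyn from -0.15 to 0.46, Pde10a from -0.01 to 0.23, Htr2c from -0.21 to 0.05, Htr1f from -0.13 to 0.02, Rora from -0.10 to 0.10, Rarb from -0.03 to 0.07, Rpl6 from -0.01 to 0.01, Kcnq5 from -0.17 to 0.11, Cacnb2 from -0.19 to 0.19 and Plxna2 from -0.27 to 0.10. With male nuclei alone Tac1 stood at -0.24, Pdyn at -0.09, Ppp3ca at 0.03, Kcnd2 at 0.01, Cacnb2 at -0.10, Plxna2 at 0.08 and the difference of Fos at -0.12. With female nuclei alone Isl1 stood at -0.01, Homer1 at 0.03, Rora at -0.08, Rpl6 at -0.13 and Kcnq5 at 0.06. With sums per animal Ppp3ca stood at 0.01, Rpl6 at -0.02 and Kcnq5 at 0.02, and without mixed nuclei Ppp3ca and Kcnq5 at 0.00. Rora and Rarb stood at -0.00 with the length trend removed, Rora and Rpl6 at -0.01 with no filter, and Kcnq5 at 0.01 after thinning. Rpl6 stood at -0.01 with equal numbers of nuclei, -0.10 under the stricter rule, -0.01 without interneuron-marker nuclei and -0.04 without nuclei with markers of both sexes.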
